A study of Mus musculus with 3 samples.

Results

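The cells described here are GFP+ neurons of the mouse neocortex (NCx) with detected mRNA of *Pou3f2* but no detected mRNA of *Nos1*. *Nos1* encodes the enzyme that marks long-range projecting (LRP) SST+ neurons. The cells were selected on their measured unique molecular identifiers (UMIs, each standing for 1 captured mRNA molecule). A count of 0 UMIs does not show that a cell lacked the mRNA. A cell had to have more than 700 genes and a mitochondrial share under 10%, at least 1 *Pou3f2* UMI, 0 UMIs of *Nos1*, *Chodl*, *Dach1*, *Lypd1* and *Neurod6*, and at least 1 UMI of *Rmst* or *Cux2*. Of 9433 cells that passed the limits on genes and mitochondrial share, 257 met all conditions, and they are called Pou3f2+Nos1- cells. The E16.5 library held 57 of them, the P1 library 162 and the P5 library 38. The name is short for the whole rule and does not cover every cell with *Pou3f2* and without *Nos1*. In all, 403 kept cells held *Pou3f2* and none of the 5 genes set to 0, and only those with *Rmst* or *Cux2* were taken. Because the 8 genes of the rule chose the cells, their levels are given as a description only.

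Single-cell RNA-seq was performed on sorted GFP+ NCx cells. They came from SstCre/+;RCEfl/+ mice, in which Cre from the *Sst* locus switches on a GFP reporter for good in any cell that has expressed *Sst*. A GFP+ cell may therefore hold no *Sst* mRNA when it is collected, and cells of other classes that once expressed *Sst* carry GFP as well. Each stage was 1 library of pooled animals (6 for E16.5 and 3 each for P1 and P5), so stage and library cannot be told apart, cells are not replicates, and no test was made between groups or stages. Tissue was dissociated with pronase, dead cells were left out by DAPI staining, and the P5 tissue had an added trypsin and DNAse step. All intervals are 95% intervals for counting error only, and values given in threes follow the order E16.5, P1 and P5.

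Pou3f2 (Brn2) is a POU homeodomain transcription factor of neural progenitors and of neurons in the upper cortical layers. *Rmst* is a long noncoding RNA of the developing nervous system that is known to bind SOX2, and Cux2 is a homeodomain protein of upper layer neurons that is also present in GABAergic interneurons. SST+ LRP neurons are GABAergic cells of the medial ganglionic eminence (MGE) whose axons leave their cortical area, and they are known for neuropeptide Y and neuronal nitric oxide synthase, the product of *Nos1*.

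The libraries held 12324 cells. Pou3f2+Nos1- cells were of ordinary depth, with median UMI counts of 5379, 3357.5 and 3273. The comparison group, 7881 kept cells with 0 UMIs of both *Nos1* and *Pou3f2* (called other cells), had medians of 5538, 3181 and 4292 UMIs. No Pou3f2+Nos1- cell lay above the 99th percentile of UMIs of its library, and no doublet caller was run. Their median mitochondrial share was 3.78%, 5.37% and 3.52%, below that of the other cells (4.07%, 6.32% and 4.46%) in each library. Only 10 barcodes occurred in more than 1 library, and 1 of them belonged to a Pou3f2+Nos1- cell.

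At P1, 6.48% of the kept cells met all conditions of the rule (interval 5.54% to 7.51%). The share was 1.44% at E16.5 (1.09% to 1.86%) and 1.28% at P5 (0.904% to 1.75%), so the P1 interval lay above both others, which overlapped. The limits on genes and mitochondrial share kept 88.3%, 56.3% and 87.5% of the deposited cells (3952, 2501 and 2980), so the P1 library lost the most. Over all deposited cells the shares were 1.27%, 3.65% and 1.12%. The part of this loss in the P1 share was not tested. *Pou3f2* itself was present in 3.77%, 20.9% and 13.6% of the kept cells. Of 1075 such cells, 571 also held *Nos1* (23, 255 and 293 by stage, called Pou3f2+Nos1+ cells). No cell class known to lack *Pou3f2* was at hand to set a background for its UMIs.

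**Figure D1:**
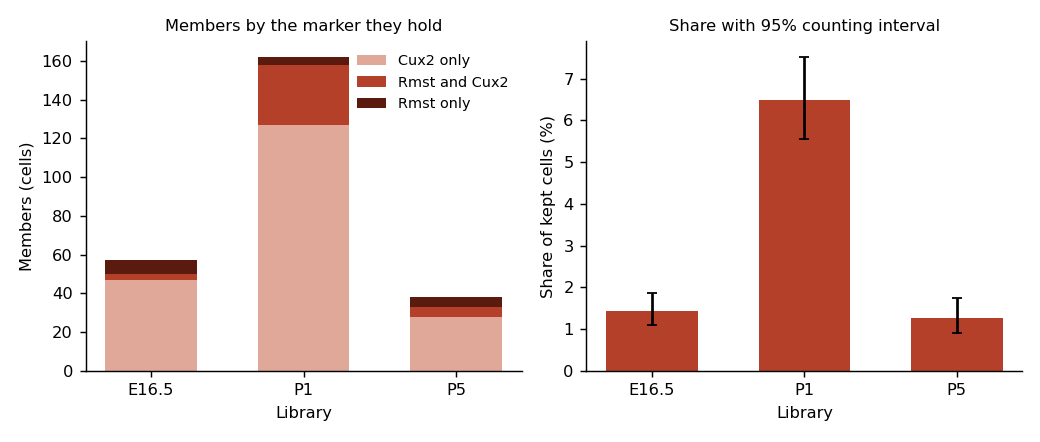
Left, the number of members (Pou3f2+Nos1- cells) in each library, stacked by whether they held UMIs of Cux2 only, of Rmst only or of both. Right, their share of the kept cells of each library in percent, with 95% Clopper-Pearson intervals. Cux2-only cells fill most of each bar, and the P1 share of 6.48% stands above those of E16.5 and P5.

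Most of these cells were chosen through *Cux2*, not *Rmst*. *Cux2* alone was found in 202 cells, both genes in 39 and *Rmst* alone in 16, so 55 of 257 cells held *Rmst*. The *Rmst* level, in UMIs scaled to a group total of 1000000 (CPM), was 67.9, 80.2 and 79.8, beside 8.07, 8.64 and 4.65 in the other cells. The *Cux2* level was 349, 743 and 399 CPM, beside 249, 374 and 113. *Cux2* was thus also common in the other cells, and a name built on *Rmst* covers the smaller share of the cells.

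The gate was narrow at its *Pou3f2* edge. Of the 257 cells, 168 held exactly 1 *Pou3f2* UMI and 89 held 2 or more, with a highest value of 10 at P1. Another 4260 kept cells met every other condition but had 0 *Pou3f2* UMIs, and 38 were left out for a single UMI of 1 barred gene. Within 100 genes of the limit on genes lay 8 selected cells, and 1 more cell fell short of it by less than that. Within 1 percentage point of the mitochondrial limit lay 9 selected cells, and 5 cells exceeded it by less than that.

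Most of the cells held mRNA of GABAergic genes and of *Lhx6* and *Sst*. At least 1 UMI of *Gad1*, *Gad2* or *Slc32a1*, which make GABA or load it into vesicles, was found in 96.5%, 92.0% and 81.6% of them, against 95.3%, 86.7% and 91.7% of the other cells, so the P5 share was the lower one. *Lhx6*, the MGE transcription factor, was found in 91.2%, 87.7% and 78.9%, beside 84.2%, 77.4% and 77.4% of the other cells. With each cell thinned to 2000 UMIs, the *Lhx6* share was 66.7%, 78.5% and 60.0%, beside 7.32%, 15.2% and 0% of cells with both *Neurod6* and *Neurod2*, excitatory neurons that should lack it. The other cells had 56.7%, 73.3% and 59.1% at that depth, so the shares were close to each other at P1 and P5. The *Lhx6* level was 596 CPM (515 to 686), 1002 (926 to 1083) and 464 (358 to 593), against 427, 736 and 471 CPM in the other cells. *Sst* was at 3533 CPM (3331 to 3743), 2201 (2087 to 2320) and 1103 (934 to 1293), against 2835, 1476 and 1447 CPM. *Sst* was therefore higher than in the other cells at E16.5 and P1 (log2 ratio 0.32 and 0.58) and lower at P5 (−0.39). Of 8 GABAergic identity genes deep enough to compare, 0 were above 0 in all 3 libraries and 1 was below 0 in all 3, with medians of −0.08, −0.06 and −0.24. Of 10 MGE lineage genes, *Npy*, *Maf* and *Sox6* were above 0 in all libraries and *Cort*, *Satb1* and *Calb1* below, with medians of 0.24, 0.42 and −0.19. Of all 2524 genes of that depth, 402 (15.9%) lay above 0 in all libraries and 586 (23.2%) below.

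Genes were compared by summing the UMIs of a group within a library, scaling them to CPM and taking the log2 ratio of Pou3f2+Nos1- cells to other cells with a pseudocount of 1 CPM. At least 10 UMIs in both groups together in each library left 12128 genes, of which 20 were at least 2-fold higher in all 3 libraries (0.165%) and 219 at least 2-fold lower (1.81%). Genes of low counts made up most of these. Among 2524 genes with at least 10 UMIs expected in the Pou3f2+Nos1- cells of each library, 3 were at least 2-fold higher in all 3 libraries (0.119%) and 8 at least 2-fold lower (0.317%). In single libraries of this deeper set, 10 genes (0.396%), 6 (0.238%) and 18 (0.713%) were at least 2-fold higher. The lower genes numbered 73 (2.89%), 50 (1.98%) and 81 (3.21%).

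The 3 genes higher in every library were *Npy*, *Cygb* and *Zbtb20*. *Npy* encodes neuropeptide Y and stood at 3357 CPM (3160 to 3562), 2974 (2841 to 3111) and 3127 (2839 to 3436). In the other cells it was 1464, 1066 and 754 CPM, which gives log2 ratios of 1.20, 1.48 and 2.05. The *Npy* level of the Pou3f2+Nos1- cells thus differed little between the libraries, while that of the other cells was lower at each later stage.

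*Zbtb20*, a zinc finger repressor of neuronal development, was at 426 CPM (358 to 503), 1578 (1482 to 1679) and 1132 (961 to 1324), with log2 ratios of 1.33, 1.60 and 2.51. *Cygb* encodes cytoglobin, a heme protein that binds oxygen and nitric oxide. It was at 179 CPM (136 to 232), 330 (287 to 378) and 370 (275 to 486), with log2 ratios of 1.42, 1.99 and 1.57. The intervals of these 3 genes did not overlap those of the other cells in any library. The genes were chosen for a 2-fold difference in these same libraries, so this is no separate evidence. The intervals also leave out the spread between cells.

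In the Pou3f2+Nos1+ cells, *Npy* and *Cygb* were higher still, while *Zbtb20* was about equal at E16.5 and lower after birth. *Npy* reached 11612, 31496 and 41166 CPM. *Cygb* reached 236, 652 and 1130 CPM there, and *Zbtb20* stood at 429, 1200 and 836 CPM. The level of *Npy* in Pou3f2+Nos1- cells lay between those of the other 2 groups in each library. At E16.5 the Pou3f2+Nos1+ cells were a mixed group, in which *Neurod6* was not barred. Of these 23 cells, 10 held UMIs of excitatory neuron genes, 52.2% held *Gad1*, *Gad2* or *Slc32a1* and 60.9% held *Lhx6*.

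**Figure D2:**
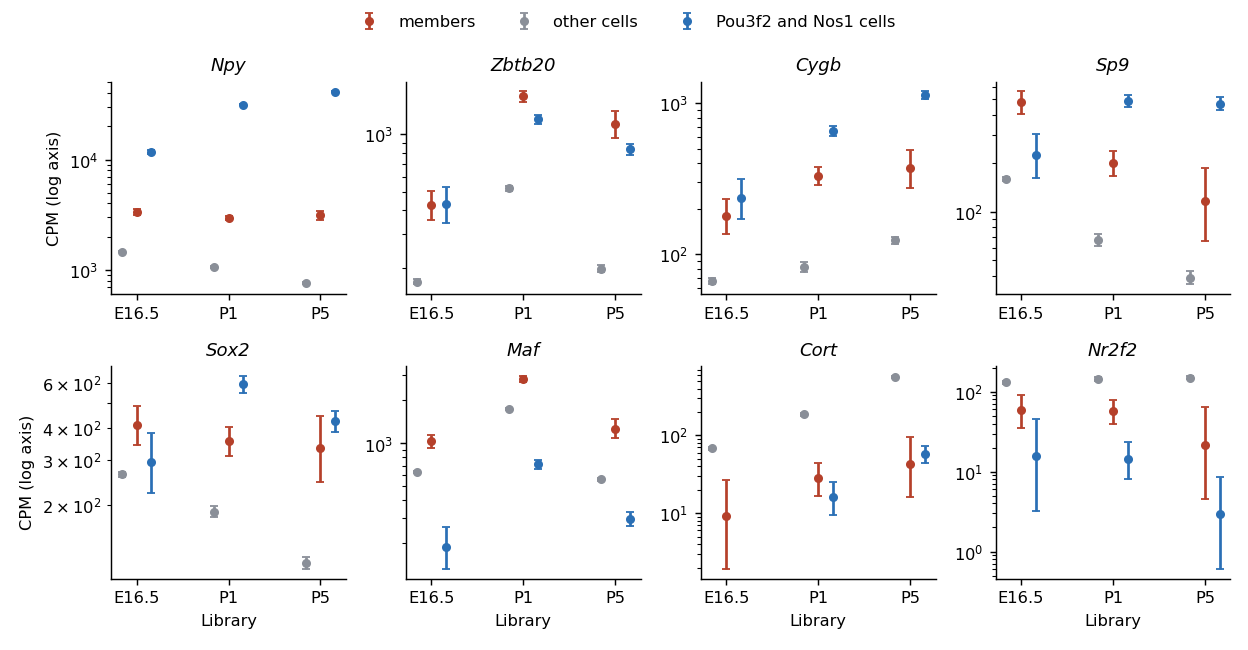
Levels of 8 genes in CPM (log axis) in members (Pou3f2+Nos1- cells), other cells and Pou3f2+Nos1+ cells of each library, with 95% Poisson intervals. Npy and Cygb are highest in Pou3f2+Nos1+ cells at P1 and P5 with members in between, Maf is highest in members, and Cort and Nr2f2 are highest in other cells. Cort had 0 UMIs in the Pou3f2+Nos1+ cells of E16.5 and is not drawn there.

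*Maf* went the other way in the Pou3f2+Nos1+ cells. This transcription factor of MGE-derived interneurons was at 1034 CPM (927 to 1151), 2830 (2701 to 2964) and 1270 (1088 to 1472) in Pou3f2+Nos1- cells. The other cells had 635, 1733 and 561 CPM, and the Pou3f2+Nos1+ cells 188, 716 and 297 CPM. The log2 ratio to other cells was 0.70, 0.71 and 1.18 without *Nos1*, and −1.75, −1.27 and −0.92 with it. The E16.5 values with *Nos1* come from the mixed group described above. Among Pou3f2+Nos1- cells with *Rmst* at E16.5, *Maf* was not higher than in the other cells (−0.25, 10 cells).

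Cell by cell, the 2 groups with *Pou3f2* also stood apart in *Npy* at P1 and P5, while at E16.5 they overlapped widely. Pou3f2+Nos1- cells held a median of 7 *Npy* UMIs (0 to 135), 7 (0 to 61) and 5 (0 to 82). The medians of Pou3f2+Nos1+ cells were 15, 118 and 106 UMIs. At least that many *Npy* UMIs were found in 25 of 57 Pou3f2+Nos1- cells of E16.5, but in 0 of the 162 of P1 and 0 of the 38 of P5. *Nos1* itself had a median of 2, 8 and 10 UMIs in the Pou3f2+Nos1+ cells. Exactly 1 *Nos1* UMI was held by 11, 39 and 13 of them, so 0 UMIs can also arise where the mRNA was missed. Of the 23 Pou3f2+Nos1+ cells at E16.5, 10 held UMIs of excitatory neuron genes.

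**Figure D3:**
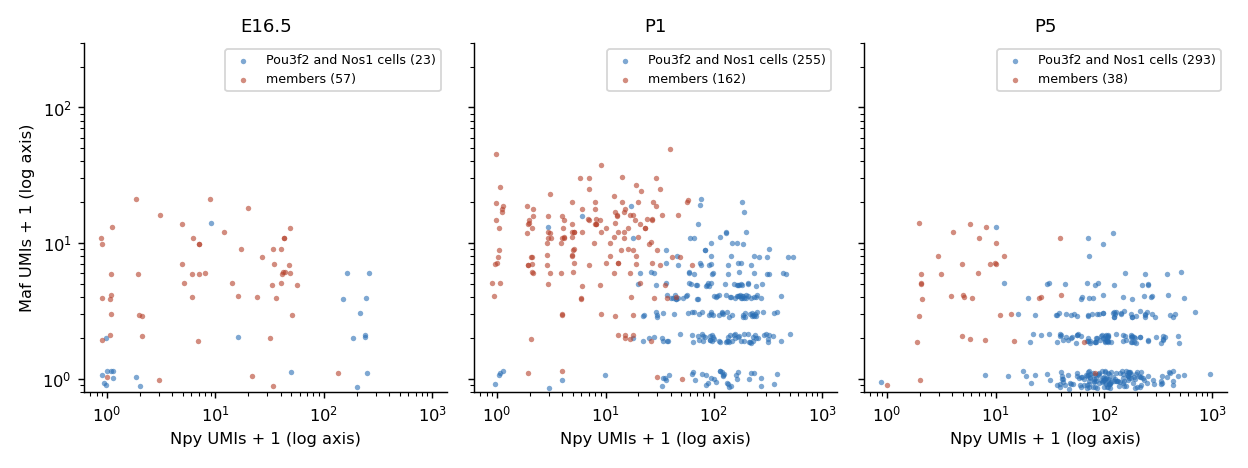
Npy UMIs plus 1 against Maf UMIs plus 1 in each single cell (log axes, points shifted slightly at random to part equal values) for members (Pou3f2+Nos1- cells) and Pou3f2+Nos1+ cells. At P1 and P5 the members lie to the left, with fewer Npy UMIs and more Maf UMIs than the Pou3f2+Nos1+ cells (medians of 7 against 118 and 5 against 106 Npy UMIs).

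Shares of cells with a UMI depend on depth and on free RNA in the droplets, so they were compared at 2000 UMIs a cell. After thinning, *Npy* was found in 77.8% of Pou3f2+Nos1- cells (64.4% to 88.0%, 54 cells), 80.7% (73.1% to 87.0%, 135 cells) and 90.0% (73.5% to 97.9%, 30 cells). The other cells had 46.0%, 50.2% and 38.7%. Cells with both *Neurod6* and *Neurod2* had 14.6%, 48.5% and 7.14% (41, 33 and 14 cells). Their unthinned median depth was 11791.5, 6227 and 4154 UMIs. At P1 the *Npy* share of the other cells was thus close to this background, and that of Pou3f2+Nos1- cells was above it. Before thinning, *Npy* was found in 80.7%, 90.7% and 97.4% of Pou3f2+Nos1- cells.

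By the naming rule, the 15 genes whose lowest ratio over the libraries was largest were *Npy*, *Zbtb20*, *Cygb*, *Sp9*, *Bcl11a*, *Brinp2*, *Sox1*, *Sox2*, *Sox4*, *Man1a*, *Prkcq*, *Maf*, *Mpped2*, *Ptn* and the long noncoding RNA *Gm26735*. Of these, 10 are in the list of LRP genes of the study. The study chose that list on these same libraries and the 15 genes had to be well detected in the Pou3f2+Nos1- cells, so the overlap is not independent evidence. *Sp9*, a zinc finger factor of GABAergic precursors, was at 479, 199.8 and 116 CPM against 160, 66.5 and 39.1 in other cells, with log2 ratios of 1.57, 1.57 and 1.55. *Bcl11a*, a zinc finger factor of cortical neurons, had ratios of 1.10, 0.80 and 0.81. The ratios of *Brinp2*, a secreted neuronal protein, were 0.93, 1.41 and 0.91, and those of *Man1a*, a mannosidase that trims N-glycans, were 0.85, 1.55 and 2.07.

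Some of the 15 genes were not shared with the Pou3f2+Nos1+ cells. *Prkcq*, which encodes protein kinase C theta, had ratios of 0.76, 1.65 and 2.67 in Pou3f2+Nos1- cells and 0.21, 0.55 and −0.56 in Pou3f2+Nos1+ cells. *Mpped2*, a metallophosphodiesterase gene in the study's list of Martinotti cell (MC) genes, had 0.64, 0.82 and 1.23 against −0.21, −0.25 and 0.35. *Ptn*, which encodes the heparin-binding growth factor pleiotrophin, went the other way, with 1.12, 0.82 and 0.63 against 2.51, 3.89 and 4.58. *Gm26735* (GRCm38 chr13:28943048-28951671, plus strand) overlaps *Sox4* on the opposite strand. Whether the counting used the strand is not given in the sources used here, so its ratios of 0.89, 1.01 and 1.59 are uncertain.

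As a group, the LRP genes were shifted up in Pou3f2+Nos1- cells, by less than in Pou3f2+Nos1+ cells. Of 41 LRP genes deep enough to compare, 26 (63.4%) lay above 0 in all 3 libraries, beside 402 of the 2524 genes (15.9%). Their median log2 ratio was 0.37, 0.39 and 0.43, against medians of −0.05, −0.04 and −0.01 over all genes. In Pou3f2+Nos1+ cells the same median was 0.86, 1.20 and 1.13. At least 2-fold higher were 8, 6 and 6 of the 41 genes at E16.5, P1 and P5, and at least 2-fold lower were 2, 0 and 1. *Pcp4*, a calmodulin regulator, and the cell adhesion gene *Ntm* are LRP genes that lay below 0 in all libraries (−1.72, −0.35 and −0.96 for *Pcp4*, −0.28, −0.77 and −0.99 for *Ntm*). The rule barred *Chodl*, *Dach1* and *Lypd1*, which the study links to LRP neurons, from the Pou3f2+Nos1- cells but not from the Pou3f2+Nos1+ cells. The other cells held neither *Nos1* nor *Pou3f2*. The medians depend on this selection, and its part in them was not tested.

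The gene lists of both other SST+ types, also chosen by the study on these libraries, had medians below 0. The MC genes (19 measured) had medians of −0.36, −0.62 and −0.53, with 12 (63.2%) below 0 in all libraries and 1, *Mpped2*, above. The non-Martinotti cell (nMC) genes (19 measured) had medians of −0.25, −0.32 and −0.13, with 8 (42.1%) below 0 in all libraries and 2 above. Of all 2524 genes, 586 (23.2%) lay below 0 in all libraries. In Pou3f2+Nos1+ cells these medians were far lower, between −1.93 and −1.19 for nMC genes and between −2.15 and −1.48 for MC genes. These medians depend on the same selection, and the E16.5 group with *Nos1* was mixed.

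**Figure D4:**
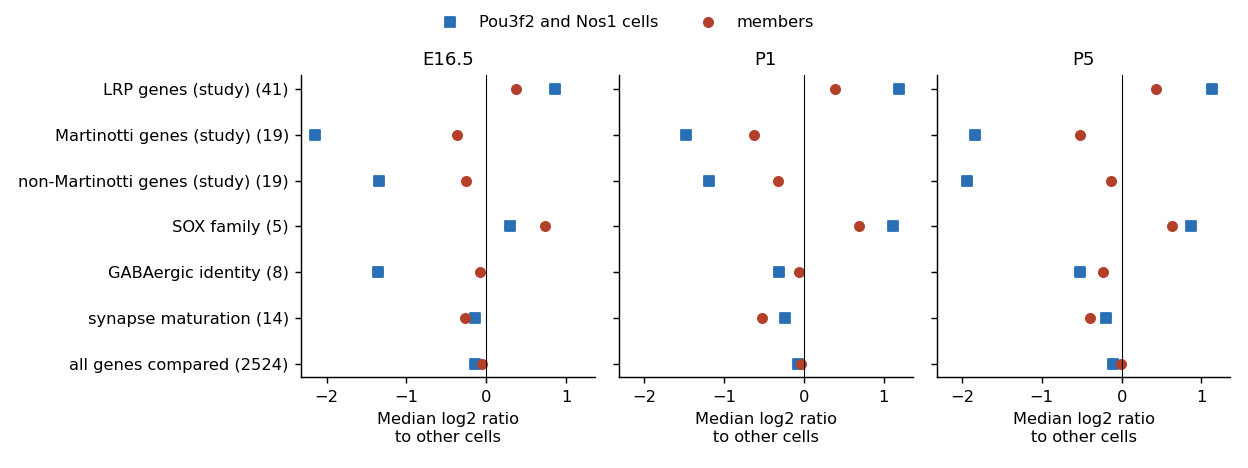
Median log2 ratio to other cells for 6 gene lists and for all 2524 genes compared, in members (Pou3f2+Nos1- cells) and Pou3f2+Nos1+ cells of each library, with the number of genes in parentheses. The members' LRP medians of 0.37 to 0.43 lie between 0 and those of Pou3f2+Nos1+ cells, and their MC and nMC medians lie closer to 0 than those of Pou3f2+Nos1+ cells.

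Most, not all, SOX genes measured lay above 0. Of 5 family members deep enough to compare, *Sox2*, *Sox4*, *Sox6* and *Sox11* (80%) were above 0 in all libraries and *Sox12* (20%) below. Of all 2524 genes, 15.9% lay above and 23.2% below 0 in all libraries. The medians of the SOX genes were 0.73, 0.69 and 0.63. *Sox2*, a factor of neural progenitors and the known partner of *Rmst* RNA, was at 411 CPM (344 to 487), 356 (311 to 405) and 334 (244 to 445). In the other cells it was at 263, 187 and 118 CPM, so its log2 ratios were 0.64, 0.92 and 1.49. Among the less deeply measured members, *Sox1*, the close relative of *Sox2*, had ratios of 0.90, 1.20 and 1.88, and *Sox5*, a factor of neuronal differentiation, had −2.57, −1.03 and −3.70 from 1, 5 and 0 UMIs. *Sox11*, a factor of newborn neurons, was at 5950, 2755 and 617 CPM against 3547, 1710 and 399, and so was lower at each later stage in both groups. *Npy*, *Sox2* and *Lhx6* UMIs stood together in 68.4%, 53.1% and 55.3% of Pou3f2+Nos1- cells, against 36.0%, 29.3% and 18.1% of other cells. In Pou3f2+Nos1+ cells the shares were 52.2%, 73.3% and 49.5%, so the combination was not particular to Pou3f2+Nos1- cells. These shares were not thinned to equal depth.

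The 8 cell cycle genes summed to 77.2, 37.8 and 0 CPM, against 41.0, 35.6 and 16.4 CPM in the other cells. Of the 25 UMIs at E16.5, 11 were of *Top2a* and lay in 1 cell, and *Mki67*, a gene of dividing cells, had 3, 4 and 0 UMIs over the stages.

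Most, not all, genes of synaptic vesicle release and synapse maturation lay lower. Of 15 synapse maturation genes, 14 were deep enough, and 11 of them lay below 0 in all libraries (78.6%, beside 586 of the 2524 genes, or 23.2%), with medians of −0.26, −0.52 and −0.40. At the lower minimum of 10 UMIs in both groups together, 1 of the 15 genes lay above 0 in all libraries. *Cplx1*, which encodes the vesicle fusion regulator complexin, was lowest, with −1.26, −0.83 and −1.29. *Syt1*, the calcium sensor of vesicle release, had −0.56, −0.72 and −0.23. Of 11 migration genes deep enough, 3 (*Dcx*, *Dclk2* and *Sox11*) lay above 0 in all libraries (27.3%, beside 15.9% of the 2524 genes). Another 5 lay below 0 in all libraries (45.5%, beside 23.2%). The medians of the migration genes were −0.03, −0.08 and −0.04. Of the migration genes below that depth, *Igfbpl1* had ratios of 1.37, 1.82 and 1.43 (276, 135 and 2 UMIs) and the chemokine receptor gene *Ackr3* had 0.70, 0.79 and 2.86 (67, 94 and 6 UMIs).

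The 10 genes lowest in all libraries by the naming rule were *Cort*, *St6galnac5*, *Nr2f2*, *Pcdh17*, *Galntl6*, *Gfra2*, *Lgi2*, *Tmem178*, *Adgra1* and *Wbp1l*. *Cort* encodes the neuropeptide cortistatin, a relative of somatostatin. It was at 9.26, 28.3 and 43.5 CPM, against 68.3, 186 and 567 CPM in other cells. Its log2 ratios of −2.75, −2.68 and −3.67 rest on 3, 18 and 6 UMIs. *Nr2f2*, the nuclear receptor COUP-TFII, had 19, 36 and 3 UMIs (13 of the 19 at E16.5 in 1 cell) and ratios of −1.15, −1.35 and −2.73. The sialyltransferase gene *St6galnac5* had ratios of −1.69, −1.36 and −3.08, and the adhesion gene *Pcdh17* had −1.33, −2.29 and −1.32. *Satb1*, an MGE lineage factor that is also in the MC list, had −0.59, −1.16 and −1.18.

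In single libraries, several of the highest ratios came from very few cells. At E16.5 the 5 highest were *Top2a*, *Zic1*, *Lhx8*, *Nts* and *Pax6*. All 19 *Nts* UMIs, all 14 *Pax6* UMIs and all 11 *Top2a* UMIs lay in 1 cell each, *Zic1* UMIs in 2 cells and *Lhx8* UMIs in 4. At P1 the highest were *Gm10457* (17 UMIs, 16 of them in 1 cell), *Sfrp1*, *Cygb*, *Pcsk5* and *Prcd*. *Sfrp1* encodes a secreted inhibitor of Wnt signals and had 75 UMIs in 54 cells at P1, with ratios of 1.62, 2.23 and 3.57 over the stages. At P5 the highest were *Prkcq*, *Nfix*, *Zbtb20*, *Col25a1* and *Adamts5*, of which *Nfix* rested on 3 cells.

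The lowest ratios in single libraries were mostly of genes at or near 0 UMIs. At E16.5 *Mars* and *Nrgn* had 0 UMIs in Pou3f2+Nos1- cells, *Thap1* had 1 and *Cort* 3. At P1 *Fosl2* and *Slitrk2* had 1 UMI each, *Rbp4* 3, *Tac1* 4 and *Cort* 18. At P5 *Lgals1*, *Gm47033*, *Vgf*, *Serpine2* and *Zdhhc22* had 0 UMIs. With 137838 UMIs in all at P5, the interval of 0 UMIs reached up to 26.8 CPM.

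Markers of non-neuronal and excitatory cells were few. The glial, microglial, vessel and blood list (16 genes) gave 1, 3 and 0 UMIs, or 3.09, 4.72 and 0 CPM, against 2.68, 9.77 and 11.2 CPM in the other cells. The 10 excitatory neuron genes gave 12.4, 26.7 and 7.25 CPM against 13.0, 21.6 and 18.5 CPM, and *Slc17a7*, the vesicular glutamate transporter gene, had 0 UMIs in every library. *Neurod2* had 1, 8 and 0 UMIs. At least 1 UMI of the 10 genes was found in 7.02%, 2.47% and 2.63% of Pou3f2+Nos1- cells. In the other cells these shares were 1.33%, 2.94% and 2.41%, and the higher E16.5 share rests on 4 cells. *Neurod6* was 0 by the rule, which did not bar it in the other cells. The Cajal-Retzius list gave 25 UMIs at P1, all from *Ndnf* and 14 of them in 1 cell, and 0 at E16.5 and P5.

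The 16 genes of the caudal and lateral ganglionic eminences (CGE and LGE), which give rise to other GABAergic neurons, were also checked, and 7, 7 and 12 of them were at 0. They gave 95, 154 and 14 UMIs, or 293, 242 and 102 CPM, against 305, 354 and 264 CPM in the other cells. At least 1 of these UMIs was found in 45.6%, 42.0% and 26.3% of Pou3f2+Nos1- cells and in 53.6%, 43.8% and 45.9% of other cells. *Nr2f2* belongs to this list as well as to the MC list.

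The list of preoptic, septal and ventral telencephalic genes stood out at E16.5. It gave 80.3 CPM in Pou3f2+Nos1- cells and 3.06 in other cells, from 26 UMIs in 5 of 57 cells, with *Lhx8* and *Zic1* leading and 9 of 12 genes at 0. At P1 it gave 4.72 against 5.39 CPM, and at P5 0 against 1.71. UMIs of *Lhx8*, *Zic1*, *Meis2*, *Isl1* or *Nkx2-1* were found in 8 of the 57 cells at E16.5, and 5 of these were among the 10 cells with *Rmst*. At that stage 5.21% of other cells and 15 of 23 Pou3f2+Nos1+ cells held them. The part of these cells in the other E16.5 ratios was not tested.

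At P1, where most of them were found, cells with *Rmst* and cells with *Cux2* alone were close in *Npy*, *Zbtb20* and *Sox2*. At P1 *Maf* was lower and *Cygb* somewhat higher in the cells with *Rmst*. There, 35 cells with *Rmst* were set beside 127 with *Cux2* alone, and of 2988 genes with enough UMIs 40 were at least 2-fold higher and 73 at least 2-fold lower. The log2 ratio of cells with *Rmst* to those with *Cux2* alone was 0.14 for *Npy*, 0.01 for *Zbtb20*, 0.32 for *Cygb*, −0.15 for *Sox2* and −0.46 for *Maf*. At E16.5 (10 against 47 cells) the same ratios were −0.11, 0.01, 0.98, −0.61 and −1.09. At P5 (10 against 28 cells) they were −0.18, 0.32, 0.71, 0.77 and −0.16.

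The cells were also divided by their *Pou3f2* UMIs. The rule used this count, so the values are a description only. With 2 or more *Pou3f2* UMIs, *Npy* was at 5174, 5091 and 6809 CPM (23, 62 and 4 cells), and with exactly 1 it was at 2245, 1848 and 2779 CPM (34, 100 and 34 cells). The log2 ratio to other cells for *Sp9* was 2.04, 2.46 and 3.07 with 2 or more and 1.20, 0.70 and 1.26 with 1. For *Cygb* it was 1.76, 2.74 and 2.60 against 1.16, 1.36 and 1.42. *Maf* was about equal, with 0.60, 0.73 and 1.07 against 0.77, 0.70 and 1.19. Depth was similar, with medians of 5064, 3357.5 and 2969.5 UMIs against 5520, 3371 and 3455, and the P5 values with 2 or more rest on 4 cells.

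Pou3f2+Nos1- cells lay near each other by genes that the rule did not use. The 30 nearest neighbors of each cell were found in its own library over 15 principal components, without the 8 genes of the rule. Among the neighbors of Pou3f2+Nos1- cells, 8.83%, 25.0% and 4.82% were Pou3f2+Nos1- cells themselves, beside 1.44%, 6.48% and 1.28% of all kept cells. Among the neighbors of the other cells, the shares were 1.13%, 5.58% and 1.08%. Cells with *Pou3f2* and none of the barred genes, but without *Rmst* or *Cux2*, were also near, with 3.92%, 6.75% and 7.02% of the neighbors beside 0.506%, 3.00% and 1.71% of all cells.

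The neighbors of Pou3f2+Nos1- cells were also searched for Pou3f2+Nos1+ cells. Cells with *Nos1* but without *Pou3f2* were left out of this count. After birth, the share of Pou3f2+Nos1+ cells lay between that among the neighbors of other cells and that in the library. They made up 0.585%, 5.74% and 3.77% of the neighbors of Pou3f2+Nos1- cells, beside 0.582%, 10.2% and 9.83% of all kept cells. Among the neighbors of the other cells they made up 0.190%, 1.13% and 0.482%, so in each library they were more frequent next to Pou3f2+Nos1- cells than next to other cells. At P1, 6 of 162 Pou3f2+Nos1- cells had Pou3f2+Nos1+ cells as at least 50% of their neighbors, and at E16.5 and P5 no cell did. At P1, 23 of 162 had at least 50% of their neighbors in their own group, and at E16.5 and P5 no cell did.

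**Figure D5:**
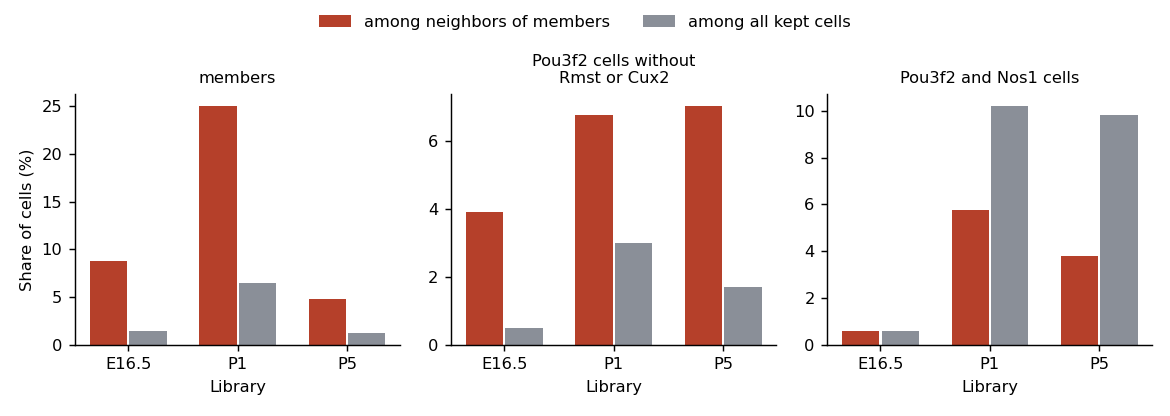
Share of members (Pou3f2+Nos1- cells), of Pou3f2 cells without Rmst or Cux2 and of Pou3f2+Nos1+ cells among the 30 nearest neighbors of members, beside their share of all kept cells, in percent by library. Members are 8.83%, 25.0% and 4.82% of the members' own neighbors, above their share of the library, and Pou3f2+Nos1+ cells are below theirs at P1 and P5 (5.74% and 3.77%, against 1.13% and 0.482% of the neighbors of other cells, which are not drawn).

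None of the 3 other genes of the Pou3f class was higher in all libraries. *Pou3f3*, its close relative and a gene of the MC list, was at 127, 219 and 225 CPM against 140, 278 and 267 in other cells, with log2 ratios of −0.15, −0.34 and −0.25. *Pou3f1* had 0 UMIs at E16.5 and P5 and 7 UMIs in 3 cells at P1, and *Pou3f4* had 5, 1 and 0 UMIs. *Etv1*, an ETS factor, had ratios of −1.63, −0.09 and 0.90 from 7, 22 and 10 UMIs.

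POU factors bind the octamer ATGCAAAT, so this 8-base motif was searched on both strands (the other strand reads ATTTGCAT) in the RefSeq promoters of the higher genes, each 250 bases before to 50 after a start site in GRCm38.p6. Of the 15 higher genes, 11 had 13 promoters in the table. The motif was found in 1 of them, that of *Sox1*, and in 1.74% of all 32851 promoters. It lies 18 bases after the start site listed there, on the plus strand, in the part that GENCODE M21 annotates as the 5′ untranslated region of *Sox1*. The stretch at chr8:12395527-12395554 is shown because it is the only match, with the octamer in capitals. A match of letters does not show that a factor binds there.
Sox1: ccagcgcgccATGCAAATcaccgccgcc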

How the data were processed

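GFP+ cells of 3 libraries (E16.5, P1 and P5) were analysed. The authors aligned reads to GRCm38 with Cell Ranger (3.1.0 for E16.5 and P5, 3.0.2 for P1, per the file headers) and deposited UMI counts per gene and cell, whole numbers without normalization, for 31053 genes. The libraries held 25638779, 15654107 and 13429055 UMIs. Groups were taken from the age labels. Members and gene lists were chosen with earlier results of these data known, and lists named after the study were chosen by it on these libraries.

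Counts were summed by group and library in Python 3.11.15 (numpy 2.4.6, scipy 1.17.1, pandas 2.3.3). Mitochondrial, ribosomal and Y-linked genes, *Xist* and the 8 rule genes were left out of gene counts. Intervals were exact Clopper-Pearson intervals for shares, exact Poisson intervals for CPM and exact binomial intervals for ratios. Genes were called at a 2-fold ratio. Named genes had at least 20 CPM and 10 UMIs in each library (in Pou3f2+Nos1- cells for higher genes, in other cells for lower genes): the 15 highest and 10 lowest over all libraries, the 5 highest and lowest of each library, up to 4 of each of the 24 lists, and a fixed set that was always given. A gene that this rule names is not reported here. *Dcx*, *Isl1*, *Nkx2-1*, *Ntm*, *Pcp4*, *Sox6*, *Sox12* and *Syt1* fall outside this rule and were named after their values were seen. The minimum of 10 expected UMIs was chosen after seeing the data. Neighbors were found with scikit-learn 1.9.0 on the natural log of UMIs per 10000 plus 1 and 2000 variable genes. Of the list genes, 4 (*St6galnac2*, *Sox2ot*, *Peg13* and *Rian*) were not matched. Doublets were not removed. The steps were tested on simulated data, 17 alternatives were planned and 2 were added after the data were seen.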

Additional observations from a re-analysis of the deposited data

Results flagged for a closer look

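For 2 genes the ratio to other cells was at least 2-fold in opposite directions in 2 libraries, with both counting intervals beyond 0. The difference between the libraries was not tested. *Meis2*, a homeobox gene of the lateral and caudal ganglionic eminences, had a log2 ratio of 1.95 at E16.5 and −1.48 at P1. At E16.5 its 44 UMIs lay in 3 cells, 36 of them in 1. *Nfix*, a nuclear factor I gene, had −3.65 at E16.5, where it had 0 UMIs, and 2.65 at P5, where 13 UMIs lay in 3 cells.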

How the results depend on the processing

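Of 2562 ratios of 61 named genes over the alternatives, 2230 stayed within their counting interval, 300 left it and 32 changed sign. Only some lists were followed over the alternatives. The GABAergic identity median at P1 was 0.07 with at least 10 UMIs in both groups together and −0.06 with at least 10 expected UMIs. The medians of the LRP, MC, SOX and synapse maturation lists kept their sign but not their size. Over the alternatives at E16.5, P1 and P5 they ranged from 0.37 to 0.85, 0.39 to 0.75 and 0.38 to 0.76 for LRP genes, −1.17 to −0.36, −1.005 to −0.51 and −1.84 to −0.25 for MC genes, 0.36 to 0.75, 0.51 to 0.69 and 0.47 to 1.05 for SOX genes, and −0.37 to −0.09, −0.84 to −0.23 and −0.64 to −0.31 for synapse maturation genes. From the main 20 higher and 219 lower genes, limits of over 1000 genes and under 5% mitochondrial UMIs gave 13 and 81, requiring *Rmst* 43 and 1161, a pseudocount of 5 CPM 10 and 27, and the minimum of expected UMIs, chosen after seeing the data, 3 and 8. The lower count was 1008 with at least 2 *Pou3f2* UMIs, 136 with no requirement on *Rmst* or *Cux2*, 117 with other cells matched for the barred genes and for *Rmst* or *Cux2*, and 114 with at least 30 UMIs.

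The shares at E16.5, P1 and P5 were 0.582%, 2.48% and 0.134% with at least 2 *Pou3f2* UMIs, 0.253%, 1.40% and 0.336% with *Rmst* required, and 1.95%, 9.48% and 2.99% with no requirement on *Rmst* or *Cux2*. Stricter limits gave 9.21% at P1, and 30 components gave 26.3% of neighbors at P1.

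These log2 ratios changed sign. With at least 2 *Pou3f2* UMIs, *Adamts5* at P5 was −4.51, *Adgra1* at P5 0.61, *Nfix* at P5 −3.92, *Prcd* at E16.5 −2.26 and *Gm10457* at P1 −2.32. With *Rmst* required, *Galntl6* was 0.15, *Lgi2* 0.40, *Pcdh17* 0.63, *Pou3f4* −2.49 and *Top2a* −0.18 at E16.5, *Nrgn* was 0.72 at P1 and *Nfix* −3.92 at P5. With *Cux2* required, *Nts* was −1.94, *Pax6* −2.77 and *Zic1* −0.18 at E16.5. With no requirement, *Neurod2* was 0.29, *Pou3f4* 0.41 and *Wbp1l* 0.065 at P5, and *Pax6* 0.30 at P1. With stricter limits, *Gm10457* was −0.71 and *Pou3f1* −2.16 at P1 and *Top2a* −0.086 at E16.5. Without cells holding excitatory genes, *Pou3f1* was −0.026 at P1 and *Top2a* −0.18 at E16.5, and by the mean CPM per cell *Pou3f1* was −0.047. *Nrgn* at P1 was 0.017 against other cells without the barred genes and 0.041 against those matched also for *Rmst* or *Cux2*. Without the cell with most UMIs of the gene, an alternative chosen after seeing the data, *Gm10457* was −0.94 and *Pou3f1* −0.22 at P1, and *Nts* −1.94, *Pax6* −2.77 and *Top2a* −0.18 at E16.5. The cause was not tested beyond what each alternative removes.

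No paired analysis was possible because each stage was 1 library, which also left no library to omit within a stage. With 38 Pou3f2+Nos1- cells and 137838 UMIs, P5 gave the widest intervals.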
